A study of Sus scrofa with 6 samples.

Results

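Genes with a symbol made of ZNF and a number encode zinc finger proteins, and those with a mean level of at least 1 FPKM over 6 RNA sequencing samples of porcine oocytes were taken as expressed. FPKM, mapped fragments scaled to transcript length and to the total of the sample, was deposited by the authors for 29861 genes, of which 258 carried a ZNF symbol. With this rule 68 ZNF genes were expressed, and they were compared with the 4645 other genes at or above the same mean. The genes were chosen by their mean FPKM over all samples, so their presence is a description. The rule did not use the differences between the groups, but a gene can pass it through the group where it is high. The family was also chosen with earlier results of these data known.

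The 6 samples fell into 3 groups of 2. Control oocytes were matured in vitro without heat or nicotinamide mononucleotide (NMN, a precursor of the coenzyme NAD+), heat-stressed oocytes spent 24 hours of the maturation at a raised temperature, and NMN-supplemented oocytes received the same heat stress together with NMN. No group received NMN without heat, so a difference between NMN-supplemented and control oocytes holds both treatments. The oocytes came from abattoir ovaries and were pooled, and nothing states that the samples of a group were collected separately, so the tests measure only the spread between these samples. The labels give the stage as GV and the time as 24 hours, while the methods of the study name metaphase II oocytes.

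A zinc finger of the C2H2 type is a short fold in which a pair of cysteines and a pair of histidines hold a zinc ion, and rows of such fingers read DNA bases. Many ZNF proteins carry a KRAB domain in front of the fingers, which recruits the co-repressor TRIM28 and with it the histone methyltransferase SETDB1, and these proteins are best known for silencing retrotransposons and for keeping imprinted genes marked in the oocyte and early embryo. Others have few fingers and work in RNA processing, translation, spindle assembly or DNA repair. A fully grown oocyte is almost silent in transcription, and its mRNA levels during maturation are known to depend largely on storage, polyadenylation and decay.

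As examples of the C2H2 finger, 1 finger with the linker that follows it is given for 3 members. The examples are from the most abundant member, ZNF436, from ZNF281, which rose, and from ZNF574, which fell, between control and NMN-supplemented oocytes. Each is coding DNA of the Sscrofa11.1 build from 5′ to 3′ on the gene's strand, cut from 1 exon, and the capitals mark the codons of the 2 cysteines and the 2 histidines. The 3 pieces lie at chr6:81253954-81254031, chr10:23037973-23038050 and chr6:49836028-49836105, all on the minus strand.

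ZNF436: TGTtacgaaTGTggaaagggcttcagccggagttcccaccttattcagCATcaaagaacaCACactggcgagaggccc

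ZNF281: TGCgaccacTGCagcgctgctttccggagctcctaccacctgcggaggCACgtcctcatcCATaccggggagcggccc

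ZNF574: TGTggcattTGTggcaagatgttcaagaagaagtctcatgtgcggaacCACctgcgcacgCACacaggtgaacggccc

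The KRAB core is shown for 2 members that rose, ZNF567 and ZNF568, and for 2 that fell, ZNF7 and ZNF134, since the same domain stood on both sides of the comparison. These are the codons for the core of the KRAB A box, and the capitals mark the codons of a Glu-Trp and a Leu-Tyr pair used to find it. They lie at chr6:45716505-45716597 (minus strand), chr6:46105244-46105336 (minus), chr4:161512-161604 (plus) and chr6:62086210-62086302 (plus).

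ZNF567: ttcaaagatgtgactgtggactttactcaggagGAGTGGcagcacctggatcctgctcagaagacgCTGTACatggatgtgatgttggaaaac

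ZNF568: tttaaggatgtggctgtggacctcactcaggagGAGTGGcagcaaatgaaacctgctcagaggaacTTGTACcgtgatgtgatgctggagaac

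ZNF7: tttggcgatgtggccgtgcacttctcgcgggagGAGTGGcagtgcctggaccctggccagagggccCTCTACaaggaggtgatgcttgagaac

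ZNF134: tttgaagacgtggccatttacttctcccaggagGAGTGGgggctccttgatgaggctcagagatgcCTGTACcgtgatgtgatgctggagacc

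Over these 93 bases, ZNF567 and ZNF568 shared 80.6%, ZNF567 and ZNF7 73.1%, and ZNF7 and ZNF134 68.8% of the bases at the same position.

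Most ZNF genes were low in these oocytes. Of the 258, 12 were listed at 0 in all 6 samples, 76 had a mean above 0 but under 0.1 FPKM, 102 lay between 0.1 and 1 FPKM, 40 between 1 and 5, 11 between 5 and 10, and 17 at 10 FPKM or more. The 68 expressed genes were 26.4% of the ZNF genes, and 15.7% of all other genes passed the same mean. The other genes were not restricted to those with an annotated protein, which 256 of the 258 ZNF genes had. Of 251 genes in 11 other families, picked by the start of their symbol, 33.1% passed it. Single families ran from 0% (ZKSCAN) to 42.5% (RNF). The shares therefore do not show that ZNF genes were expressed unusually often. In every one of the 6 samples 49 of the 68 genes had at least 1 FPKM. The lowest that passed were ZNF112 (mean 1.02 FPKM) and ZNF800 (1.03 FPKM), and just under the limit lay ZNF283 (0.996 FPKM) and ZNF783 (0.988 FPKM).

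**Figure D1:**
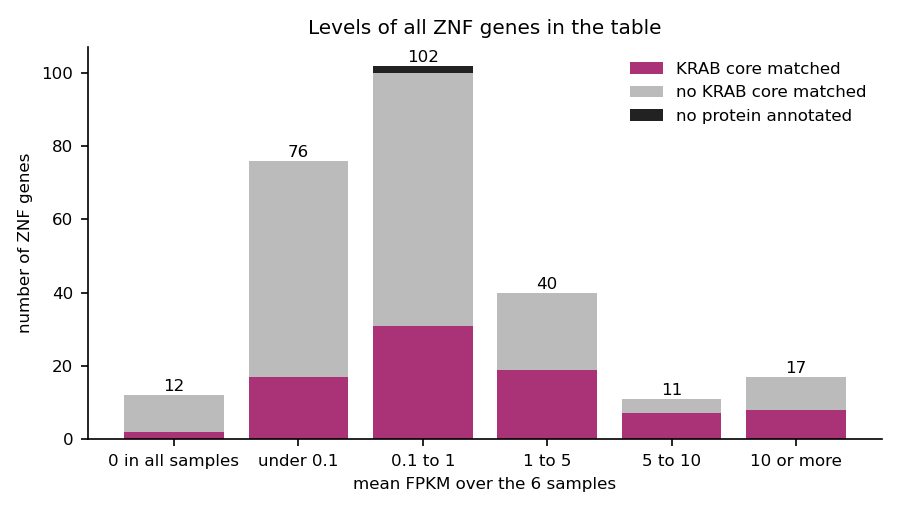
Number of ZNF genes (vertical axis) by their mean FPKM over the 6 samples (horizontal axis), with each bar split into genes whose protein matched a KRAB core, genes without such a match and genes with no annotated protein. The fullest bar holds 102 genes between 0.1 and 1 FPKM, and the 3 bars on the right hold the 68 expressed genes, 34 of them with a KRAB core.

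ZNF436 was the most abundant, with 80.7 and 60.4 FPKM in the control, 68.4 and 71.0 in the heat-stressed and 65.6 and 70.1 in the NMN-supplemented samples. The groups overlapped, and ZNF436 alone made up 10.3% to 14.6% of the summed FPKM of the expressed ZNF genes in each sample. The next in level were ZNF281, a transcription factor known from the regulation of pluripotency genes, ZNF140, a KRAB repressor, ZNF597, known as an imprinted gene, and ZNF706, a protein of 76 residues in the annotation with a single finger. ZNF513, a regulator known from retinal disease, was read at 34.2 and 27.6 FPKM in control, 28.5 and 26.4 in heat-stressed samples and 29.4 and 28.8 after NMN, and the control samples overlapped both other groups. ZNF593, a nucleolar factor of ribosome assembly, ran from 18.7 to 28.5 FPKM and ZNF22 from 14.01 to 26.7 FPKM. Both NMN-supplemented samples of ZNF593 lay under both control samples, and in ZNF22 all groups overlapped. ZNF24 was read at 14.5 and 13.6 FPKM in control, 17.1 and 20.8 in heat-stressed samples and 19.1 and 25.03 after NMN, with both control samples lowest (0.60 ± 0.17 between the outer groups, adjusted P = 0.0583 in limma).

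Genes with a KRAB core made up 34 of the 68 expressed genes. Among the 256 ZNF genes with an annotated protein, 84 matched a KRAB core and 40.5% of these were expressed, against 19.8% of the 172 others. The match is strict and misses diverged boxes. Expressed members held 0 to 30 fingers with a median of 9, and the median was also 9 for the other ZNF genes. Members with a KRAB core had a median of 12 fingers and those without one 4.5. Chromosome 6 carried 77 of the ZNF genes and 19 of the expressed ones, which is 27.9% of these, whereas 9.62% of the other tested genes lay there.

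The oocyte identity of the samples was checked against cell type markers. Of 15 oocyte markers measured, 13 had a mean of at least 1 FPKM, and DDX4 and FIGLA lay below it. The list summed to 3435 and 3674 FPKM in control, 3348 and 3364 in heat-stressed samples and 3141 and 2891 after NMN. The sum hides single markers that went either way. BMP15 was read at 1606 and 1646 FPKM in control and 1820 and 1751 after NMN. GDF9 was read at 732 and 777 FPKM in control and 435 and 353 after NMN. Of 15 cumulus and granulosa markers only INHBA reached 1 FPKM, AMH and INHA were listed at 0 in all samples, and the sum of the list was 17.4 and 13.9 in control, 10.7 and 8.49 in heat-stressed samples and 5.51 and 11.5 FPKM after NMN. None of 11 stroma and blood markers reached 1 FPKM. Genes of the mitochondrial genome took 61.7% to 66.4% of the summed FPKM in control, 62.4% and 71.6% in heat-stressed samples and 74.2% and 74.7% after NMN. The depth is unknown in reads, but the FPKM steps of low genes showed that 1 fragment was worth up to 1.58 times as much from sample to sample, least in control replicate 2 and most in heat-stressed replicate 1. Between the samples, the levels of the 68 genes had a Spearman correlation of 0.862 to 0.972, as a description over genes that share each library.

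Heat-stressed oocytes were first compared with control oocytes to see which ZNF genes moved with the heat. None of the 68 passed an adjusted P under 0.05 in limma, and neither did any other tested gene (0.0%). At an unadjusted P under 0.05 there were 15, of which 14 were higher and 1 was lower in heat-stressed oocytes. Of all tested genes 22.8% were called at this level, 12.7% higher and 10.1% lower, against 20.6% and 1.47% of the ZNF genes. The median difference on the log2(FPKM + 1) scale was 0.16 for the ZNF genes and 0.05 for the other genes, with 42 of 68 (and 55.1% of all tested genes) above 0. Without control replicate 2 the median of the ZNF genes was 0.0563 and that of all tested genes 0.0351, and over the 4 pairs of 1 heat-stressed and 1 control sample the distance between ZNF and other genes ran from -0.0035 to 0.18. When each sample was scaled to its summed nuclear FPKM, the median of the ZNF genes turned to -0.09 and the counts to 0 higher and 1 lower, while that scaling moved the median of all tested genes by -0.27. In heat-stressed replicate 1 a single gene, LOC100513953, took 37.0% of the nuclear sum and was listed at 0 in the other samples. Without it, the scaling gave a median of 0.12, with 6 ZNF genes higher and 1 lower, and quantile normalization gave 11 higher and 3 lower. Without heat-stressed replicate 2 the count was 7 and without control replicate 2 it was 9.

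ZNF770 had the largest difference, with 2.66 and 1.40 FPKM in control and 5.40 and 3.23 in heat-stressed samples (0.81 ± 0.29 on the log2 scale, SE, n = 2 per group, adjusted P = 0.196 in limma). Both heat-stressed samples lay above both control samples, and so did the NMN-supplemented ones with 5.05 and 3.84 FPKM. ZNF567, a KRAB gene, rested on closer replicates, with 4.19 and 3.50 FPKM in control and 6.999 and 6.877 in heat-stressed samples (0.72 ± 0.13, adjusted P = 0.111). ZNF655, ZNF181 and ZNF713, all with a KRAB core, each differed by 0.53, and ZNF667 by 0.51. ZNF713 was read at 0.75 and 0.775 FPKM in control, 1.4999 and 1.574 in heat-stressed samples and 1.25 and 1.07 after NMN, so that the heat-stressed samples were the highest. The same held for ZNF181, with 4.43 and 4.10, then 6.88 and 6.33, then 5.64 and 5.91 FPKM. The single lower gene was ZNF212, with 2.96 and 3.85 FPKM in control and 1.88 and 1.72 in heat-stressed samples (-0.65 ± 0.14, adjusted P = 0.122). In bulk RNA, fewer cells with a transcript and less of it in each cell cannot be told apart.

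NMN-supplemented oocytes were then compared with heat-stressed oocytes, the contrast that addresses NMN itself. None of the 68 genes had an adjusted P under 0.05 in limma, as was the case for all tested genes (0.0%). At an unadjusted P under 0.05 there were 10, of which 4 were higher and 6 lower, which is 5.88% and 8.82% of the ZNF genes, and over all tested genes 7.15% were higher and 6.45% lower. The count was 5 without heat-stressed replicate 1 or without NMN-supplemented replicate 2, and 6 without NMN-supplemented replicate 1. The median difference was 0.08 for the ZNF genes and 0.08 for the other genes. Scaling to the nuclear sum left 1 higher and 0 lower and raised the median of all tested genes by 0.28.

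The 4 higher genes were ZNF445, ZNF281, ZNF598 and ZNF23. ZNF445, which protects imprinted regions together with ZFP57, was read at 16.002 and 19.4 FPKM in heat-stressed samples and 24.5 and 25.2 after NMN (0.47 ± 0.16, adjusted P = 0.35). ZNF598, the ubiquitin ligase that recognises collided ribosomes, stood at 17.1 and 17.6 FPKM in control, 15.9 and 16.2 in heat-stressed samples and 21.6 and 20.9 after NMN. Its heat-stressed samples were thus the lowest of the 6 and its NMN-supplemented samples the highest (0.38 ± 0.10 between these 2 groups, adjusted P = 0.277). ZNF23 was read at 1.07 and 0.801 FPKM in heat-stressed samples and 1.45 and 1.47 after NMN. The 6 lower genes were ZNF574 (-0.86 ± 0.22), ZNF7 (-0.64), ZNF79 (-0.59), ZNF182 (-0.50), ZNF134 (-0.46) and ZNF75D (-0.46). ZNF574 went from 2.10 and 1.97 to 0.349 and 1.06 FPKM, and the 2 groups did not overlap.

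Between NMN-supplemented and control oocytes, 11 ZNF genes rose and 7 fell at an adjusted P under 0.05 in limma. These 18 were 26.5% of the 68, and over all tested genes 21.5% were called, 12.4% higher and 9.17% lower, against 16.2% and 10.3% of the ZNF genes. At an unadjusted P under 0.05 there were 34 ZNF genes, 26 higher and 8 lower, where 41.3% of all tested genes were called, 25.6% higher and 15.7% lower. This count was 5 higher and 6 lower after scaling to the nuclear sum, 21 in all without control replicate 2 and 18 without NMN-supplemented replicate 2. The samples did not overlap in 50 of the 68 and in 69.9% of all tested genes. The median difference was 0.25 for the ZNF genes and 0.11 for the others. Under each scaling tried it stayed above 0 for the ZNF genes and also for all tested genes, where it ran from 0.0902 to 0.127. The distance of 0.15 between the medians of ZNF and other genes ran from -0.02 to 0.24 over the 4 pairs of 1 NMN-supplemented and 1 control sample. It fell to 0.04 without control replicate 2.

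The number of adjusted calls changed with the scaling and with each sample left out. Leaving a sample out leaves 1 in its group and fewer degrees of freedom, which by itself can lower the count. The counts without a sample therefore do not show what that sample holds. Without control replicate 2 and without either NMN-supplemented replicate the count of 18 fell to 0, without control replicate 1 it was 6, and without either heat-stressed replicate 9. It was 7 (3 higher, 4 lower) after quantile normalization, 7 (3 and 4) after scaling to the nuclear sum without LOC100513953 and 1 (0 and 1) with that gene in the sum. The share of mitochondrial transcripts moved with this comparison, being higher in both NMN-supplemented than in both control samples, and the part of it in the ZNF differences was not tested.

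**Figure D2:**
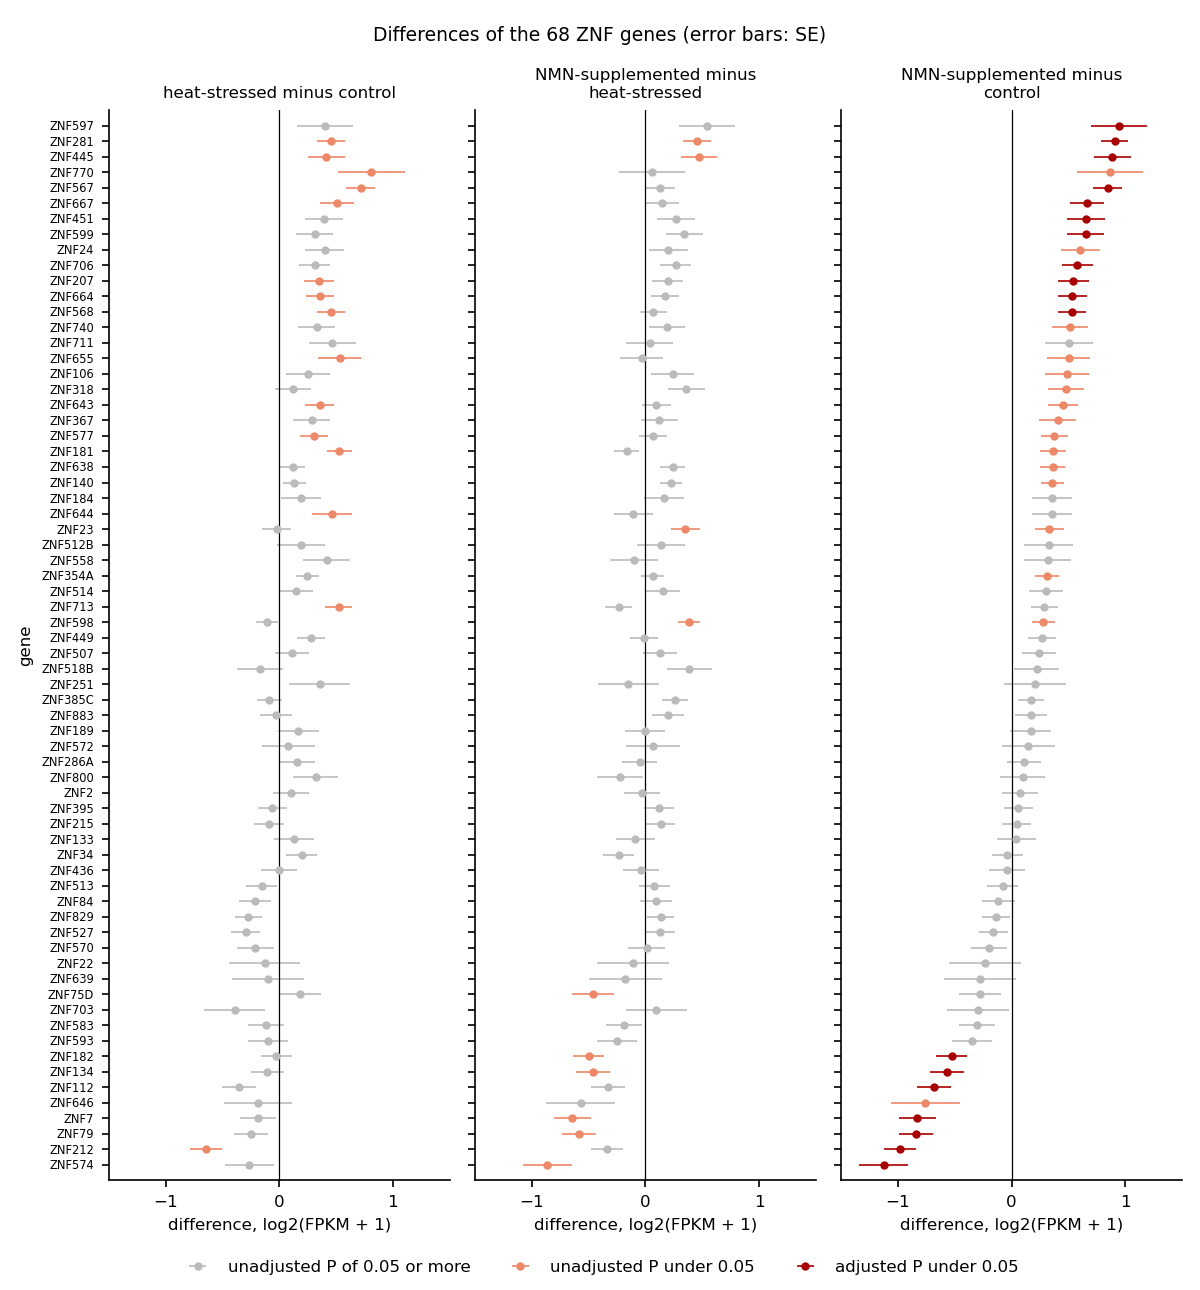
Difference on the log2(FPKM + 1) scale (horizontal axes) for each of the 68 ZNF genes (vertical axis, ordered by the difference between NMN-supplemented and control oocytes), with 1 panel per comparison; points are fitted differences, bars are SE, and colours mark unadjusted and adjusted P under 0.05. In the right panel the differences run from -1.13 in ZNF574 to 0.94 in ZNF597, and only there do genes pass the adjusted P, 11 above 0 and 7 below.

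ZNF281 had the smallest P of the genes that rose. It was read at 32.1 and 27.7 FPKM in control, 39.4 and 43.2 in heat-stressed samples and 57.1 and 56.5 after NMN, a difference of 0.91 ± 0.12 between the outer groups (adjusted P = 0.021 in limma) and 1.90 times the control mean. The 3 groups followed each other with no overlap.

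The KRAB genes among those that rose were ZNF567, ZNF445, ZNF667, ZNF599 and ZNF568. ZNF567 reached 8.21 and 7.21 FPKM in NMN-supplemented samples, 2.005 times the control mean (0.85 ± 0.13, adjusted P = 0.0211). ZNF445 went from 14.7 and 11.4 FPKM in control to 24.5 and 25.2 (0.89 ± 0.16, adjusted P = 0.0263), with both heat-stressed samples between. ZNF667, also known as Mipu1, was read at 11.4 and 11.8 FPKM in control, 14.8 and 19.4 in heat-stressed samples and 18.7 and 19.0 after NMN (0.66 ± 0.15, adjusted P = 0.0363). The heat-stressed and NMN-supplemented samples overlapped, and both stood above the control. ZNF568, known in the mouse for silencing a placental transcript of Igf2, went from 4.47 and 4.44 FPKM in control to 6.17 and 6.83 in heat-stressed samples and 6.37 and 7.40 after NMN (0.53 ± 0.12, adjusted P = 0.0381). ZNF599 rose by 0.65 ± 0.16, from 10.2 ± 1.72 to 16.5 ± 0.818 FPKM (SD, n = 2).

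Those that rose without a KRAB match were ZNF281, ZNF597, ZNF451, ZNF706, ZNF207 and ZNF664. ZNF597 had the largest difference of the 11, 0.94 ± 0.25, but also the widest spread in control, 30.6 and 18.7 FPKM against 47.3 and 46.7 in NMN-supplemented samples (adjusted P = 0.0488). Its locus is shared by 3 genes, holds NAA60 on the other strand and also spans ZNF174. ZNF451, a SUMO ligase that acts in the repair of topoisomerase 2 lesions, went from 2.30 and 1.53 FPKM to 3.43 and 3.69 (0.66 ± 0.17, adjusted P = 0.0469). ZNF207, which binds spindle microtubules and the checkpoint protein BUB3, was read at 4.47 and 5.11 FPKM in control, 5.86 and 6.90 in heat-stressed samples and 7.02 and 7.87 after NMN (0.54 ± 0.13, adjusted P = 0.0436). ZNF706 went from 22.01 and 26.26 FPKM to 38.8 and 34.1 (0.58 ± 0.14, adjusted P = 0.0394), with 29.2 and 31.0 FPKM in the heat-stressed samples. In ZNF207, ZNF451 and ZNF706 the 3 groups stood in the order control, heat-stressed, NMN-supplemented with no overlap.

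Of the 7 that fell, ZNF574 had the largest difference, -1.13 ± 0.22 (adjusted P = 0.028 in limma), with 2.777 and 2.505 FPKM in control and 0.349 and 1.06 in NMN-supplemented samples, 0.267 times the control mean. ZNF212 went from 2.96 and 3.85 FPKM in control through 1.88 and 1.72 to 1.24 and 1.19 (-0.99 ± 0.14, adjusted P = 0.021). ZNF79 was the only one of the 7 with a mean above 5 FPKM, with 8.69 and 10.7 FPKM in control, 7.67 and 8.26 in heat-stressed samples and 5.44 and 4.53 after NMN (-0.84 ± 0.15, adjusted P = 0.0251). ZNF7 ended at 0.786 and 0.386 FPKM from 1.87 and 1.73 in control (-0.83 ± 0.16, adjusted P = 0.029). In ZNF182 and ZNF134 the control and heat-stressed samples overlapped and both NMN-supplemented samples lay below all others, with 0.791 and 0.662 FPKM in ZNF182 and 0.594 and 0.682 in ZNF134. ZNF112, at the limit of the rule, went from 1.62 and 1.42 through 0.870 and 1.07 to 0.430 and 0.722 FPKM (-0.68 ± 0.15, adjusted P = 0.0347). ZNF646 was lower at an unadjusted P only, with 2.55 and 3.30 FPKM in control and 0.713 and 2.12 in NMN-supplemented samples (-0.76 ± 0.30, adjusted P = 0.119).

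**Figure D3:**
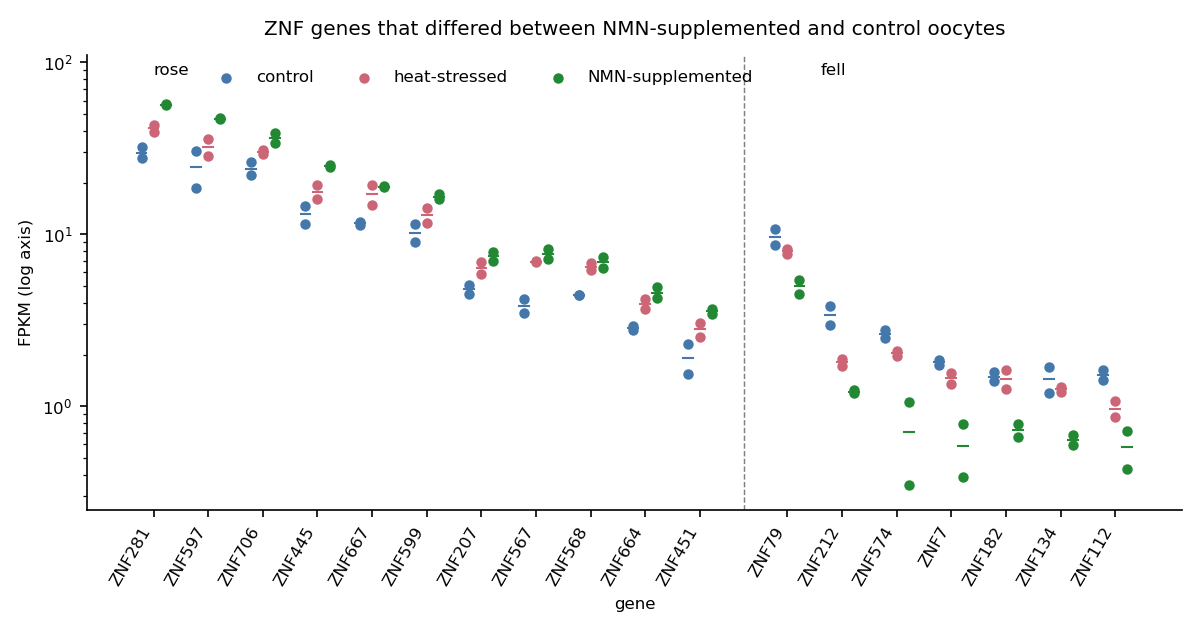
FPKM on a log axis (vertical) of the 18 ZNF genes with an adjusted P under 0.05 between NMN-supplemented and control oocytes (horizontal axis, 11 that rose left of the dashed line and 7 that fell right of it, each by falling mean); points are samples and short lines are means of 2. The heat-stressed points lie between the other groups in most genes, and the genes that fell end near or under 1 FPKM except ZNF79.

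The ZNF genes that rose were mostly abundant ones and those that fell mostly low ones. A mean over all samples can admit a gene through the group where it is high, and the part of the rule in this pattern was not tested. Of the 68 members 55 had a mean of at least 1 FPKM in all 3 groups. ZNF7, ZNF182, ZNF134 and ZNF112 lay under 1 FPKM in both NMN-supplemented samples and passed through the other groups. Among the 17 members at 10 FPKM or more, 6 rose and 0 fell between control and NMN-supplemented oocytes, with a median difference of 0.50, and among the 911 other genes of that level 195 rose and 76 fell, with a median of 0.21. Among the 40 members between 1 and 5 FPKM, 2 rose and 6 fell with a median of 0.13, and among the 3001 other genes 258 rose and 276 fell with a median of 0.07. Between 5 and 10 FPKM 3 of 11 rose and 1 fell. Over the 68 genes the Spearman correlation of this difference with the mean level was 0.36, and over the other genes 0.15, given as a description because the genes share the libraries. It was 0.34 with transcript length, -0.20 with the number of fingers and -0.19 with the GC content of the coding sequence.

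The sums of the family were compared on the scale as deposited and as a share of all nuclear transcripts. The 68 genes summed to 551 and 487 FPKM in control, 582 and 583 in heat-stressed samples and 636 and 652 after NMN, which is 123% and 126% of the control mean in NMN-supplemented samples, and on the FPKM scale the groups did not overlap. The 4632 other nuclear genes of the same level summed to 97.7% and 102% of their control mean in control, 183% and 94.4% in heat-stressed samples and 102% and 97.6% after NMN, and heat-stressed replicate 1 stood at 113% without LOC100513953. As a share of the nuclear sum the 68 genes held 0.917% and 0.776% in control, 0.534% and 1.01% in heat-stressed samples and 1.03% and 1.096% after NMN. On that scale the heat-stressed samples overlapped the control, also without LOC100513953, where heat-stressed replicate 1 had 0.847%, while both NMN-supplemented samples lay above the other 4. The 190 ZNF genes with a mean under 1 FPKM summed to 50.04 and 51.05 FPKM in control, 45.7 and 41.9 in heat-stressed samples and 32.4 and 39.3 after NMN. The order of the groups was thus the reverse among low ZNF genes. All other nuclear genes under 1 FPKM showed this order too, with 98.4% and 102% of the control mean in control, 90.9% and 88.3% in heat-stressed samples and 79.0% and 79.1% after NMN. An exact permutation test of 2 samples against 2 cannot go below P = 0.333, so no P is given for these sums.

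**Figure D4:**
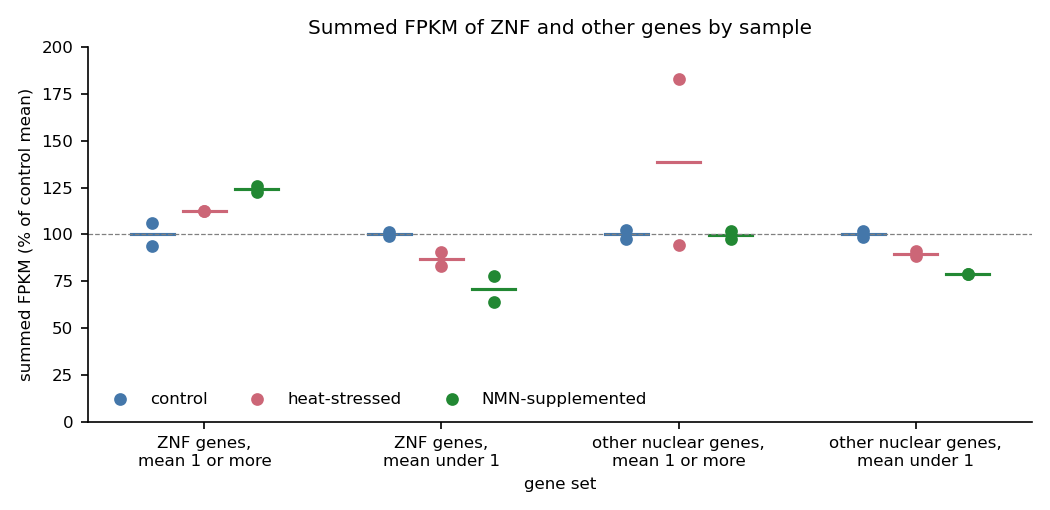
Summed FPKM as a percentage of the mean of the 2 control samples (vertical axis) for expressed ZNF genes, ZNF genes with a mean under 1 FPKM and all other nuclear genes on either side of that mean (horizontal axis); points are samples and lines are group means. The expressed ZNF genes reach 123% and 126% in NMN-supplemented oocytes and the low ZNF genes 64.1% and 77.8%. The other expressed genes stand at 102% and 97.6% there and reach 183% in heat-stressed replicate 1, which holds LOC100513953. A sum follows its most abundant genes, and the median difference from control to NMN-supplemented oocytes was above 0 in both expressed sets (0.25 and 0.11).

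Taking the 3 groups side by side, 12 members stood in the order control, heat-stressed, NMN-supplemented without any overlap, which is 17.6% of them and 15.7% of the other tested genes. These were ZNF140, ZNF207, ZNF281, ZNF354A, ZNF445, ZNF451, ZNF567, ZNF599, ZNF638, ZNF664, ZNF706 and ZNF740. The opposite order held in ZNF112, ZNF212, ZNF574, ZNF7 and ZNF79, 7.35% of the members against 7.08% of the others. The heat-stressed samples were lowest in ZNF598 and ZNF829, 2.94% against 5.79%, and highest in ZNF181, ZNF34 and ZNF713, 4.41% against 3.90%. The shares of the family lay near those of the other genes, so none of these orders is a result about the ZNF genes.

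Genes with and without a KRAB core both held members of either direction. Between NMN-supplemented and control oocytes 5 of the 34 genes with a KRAB core rose and 4 fell, with a median of 0.19, and 6 of the 34 without one rose and 3 fell, with a median of 0.27, where 12.4% of all tested genes rose and 9.17% fell and the median of the other genes was 0.11. The distance of the KRAB median from that of the other genes ran from -0.0757 (without control replicate 2) to 0.13 when 1 sample was left out. In the heat comparison 9 KRAB genes were higher and 0 lower at an unadjusted P under 0.05, against 5 and 1 without the core, with medians of 0.16 and 0.12, beside 12.7% higher and 10.1% lower and a median of 0.05 over the other genes. From heat-stressed to NMN-supplemented oocytes the medians were 0.00 and 0.13. The differences between these classes were not tested.

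Proteins that work with the KRAB domain were looked at in the same fit. Of 33 such genes measured, 16 were tested, with a median difference of 0.28 between NMN-supplemented and control oocytes against 0.11 for all other genes, and 2 rose and 1 fell at an adjusted P under 0.05. These 3 of 16 stood beside 21.5% of all tested genes, 12.4% higher and 9.17% lower. SETDB1, the histone H3 lysine 9 methyltransferase of the complex, fell, with 2.90 and 3.04 FPKM in control, 1.75 and 1.19 in heat-stressed samples and 1.05 and 1.45 after NMN (-0.83 ± 0.17, adjusted P = 0.029 in limma). FAM208A, the TASOR subunit of the HUSH silencing complex, rose by 0.67 ± 0.12 from 2.18 and 2.01 to 3.97 and 3.85 FPKM. UHRF1, which guides DNMT1 to replicated DNA, rose by 0.58 ± 0.11 from 5.70 and 5.34 to 8.50 and 9.02 FPKM. TRIM28 itself was read at 5.31 and 7.09 FPKM in control, 4.73 and 5.24 in heat-stressed samples and 6.10 and 6.38 after NMN, a difference of 0.02 ± 0.15 from control and 0.27 ± 0.15 from heat-stressed to NMN-supplemented oocytes. RBBP4 and RBBP7 are histone-binding subunits of several chromatin complexes. RBBP4 was read at 25.2 and 23.9 FPKM in control, 33.05 and 28.4 in heat-stressed samples and 36.5 and 32.3 after NMN (0.47 ± 0.13 between the outer groups, adjusted P = 0.0547), and RBBP7 differed by 0.31 ± 0.14 between NMN-supplemented and heat-stressed samples. PPHLN1, a further HUSH subunit, and CBX3, a heterochromatin protein, were higher in heat-stressed than in control samples at an unadjusted P, by 0.47 ± 0.16 and 0.43 ± 0.16. DNMT1, the maintenance DNA methyltransferase, was listed at 0 in NMN-supplemented replicate 1 and at 73.4 to 125 FPKM in the other 5 samples, and an exact 0 in such a file can be a failed estimate. In the heat comparison 3 of the 16 were higher and 2 lower at an unadjusted P under 0.05, and between NMN-supplemented and heat-stressed oocytes 2 were higher and 0 lower, with 0 at an adjusted P under 0.05 in limma in either. Over all tested genes 22.8% were called in the former (12.7% higher, 10.1% lower) and 13.6% in the latter (7.15% and 6.45%).

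The ZNF genes of RNA and translation that were tested were ZNF106, ZNF207, ZNF593, ZNF598, ZNF638 and ZNF706. Between NMN-supplemented and control oocytes 5 of the 6 were higher at an unadjusted P under 0.05, 2 of them (ZNF207 and ZNF706) rose at the adjusted level, and the median was 0.43. Of all tested genes 25.6% were higher at the unadjusted and 12.4% at the adjusted level, and the median of the other genes was 0.11. ZNF638, which works with the HUSH complex against foreign DNA, was read at 1.197 and 1.26 FPKM in control, 1.42 and 1.42 in heat-stressed samples and 1.88 and 1.85 after NMN (0.36 ± 0.11, adjusted P = 0.0675). ZNF593 was the exception, at -0.35 ± 0.18. Of 9 tested chromatin and transcription factors without a KRAB domain 3 were higher at an unadjusted P and ZNF281 and ZNF451 rose at the adjusted level, beside the same 25.6% and 12.4%, with a median of 0.36 against 0.11 for the other genes. That distance from the other genes fell to 0.0861 without control replicate 2. ZNF644, a partner of the G9a methyltransferase, was read at 1.56 and 1.06 FPKM in control, 1.89 and 2.47 in heat-stressed samples and 1.74 and 2.16 after NMN. ZNF318 (0.48 ± 0.16, adjusted P = 0.0835) was the third gene higher at an unadjusted P. The 5 that remain, ZNF703, ZNF711, ZNF512B, ZNF800 and ZNF395, did not pass it. ZNF703 was the only 1 of the 9 with a difference under 0 (-0.30 ± 0.27). It was read at 7.08 and 10.8 FPKM in control, 6.89 and 6.03 in heat-stressed samples and 5.45 and 8.83 after NMN. Its heat-stressed samples lay under both control samples, and its NMN-supplemented samples overlapped both other groups. ZNF711 differed by 0.51 ± 0.21 (adjusted P = 0.128), ZNF512B by 0.33 ± 0.21, ZNF800 by 0.10 ± 0.20 and ZNF395 by 0.0599 ± 0.13. In the heat comparison the medians of the RNA and the chromatin list were 0.19 and 0.32 against 0.05 for the other genes, with 1 of 6 and 2 of 9 higher at an unadjusted P beside 12.7% of all tested genes.

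Genes of other families, picked by the start of their symbol and not by finger type, were counted in the same fit. The pooled values are therefore not those of C2H2 genes alone. Of 251 genes in 11 families (among them ZFP, ZBTB, KLF, PRDM and RNF) 83, or 33.1%, were tested. Between control and NMN-supplemented oocytes 10 rose and 8 fell, beside 12.4% and 9.17% of all tested genes, with a median difference of 0.23 against 0.11. The 83 include 34 RNF and 7 ZDHHC genes, with medians of 0.22 and 0.17. Other family medians lay on either side of 0, with 0.34 in 12 ZBTB, 0.31 in 5 ZFP, -0.05 in 6 KLF, -0.06 in 2 PRDM and -0.19 in 3 ZSCAN genes. The medians of all 83 were 0.10 in the heat comparison and 0.09 between NMN-supplemented and heat-stressed oocytes. There 0 genes passed the adjusted P in limma, and 18 and 5 had an unadjusted P under 0.05, beside 22.8% and 13.6% of all tested genes.

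ZNF genes lie in clusters, and 15 members formed 8 pairs of expressed neighbours within 100000 bases. In 3 of the 8 pairs both genes had the same sign of difference between control and NMN-supplemented oocytes. Over all members 69.1% had a difference above 0, and ZNF7 is shared by neighbouring pairs. The pairs are too few to read a likeness or unlikeness of neighbours from this count. The closest pair was ZNF568 and ZNF829 on chromosome 6, whose annotated starts point away from each other with 19 bases between them. That gap is shown with 5 bases of each gene at its ends because both genes start from it, on the plus strand at chr6:46121502-46121530 with the 19 bases in capitals.

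ZNF568-ZNF829: tgactCAACTTCCGGCCAGAACAGagggg

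In the 299 bases centred on the gap, GC content was 63.9% with 24 CpG sites. ZNF568 rose by 0.53 ± 0.12 while ZNF829 went from 3.85 and 3.52 FPKM in control through 2.87 and 2.89 to 3.53 and 3.005 (-0.14 ± 0.12, adjusted P = 0.431). On chromosome 4, ZNF7 fell by 0.83 on the log2 scale between neighbours that were not called, ZNF34 with -0.04 and ZNF251 with 0.20. ZNF667 rose and ZNF583, the next expressed ZNF gene on chromosome 6, stood at -0.30 ± 0.16. The differences within pairs were not tested.

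Because stored oocyte mRNA is regulated through its 3′ end, the last 100 transcript bases were searched for the cytoplasmic polyadenylation element, written as TTTTAT or TTTTAAT on the gene's strand, where a poly(A) signal (AATAAA or ATTAAA) stood in the last 40 bases. Such a signal was found in 55 of 67 members with 100 bases, 82.1%, and in 78.3% of the other tested genes, and of those with a signal 13 members (23.6%) and 28.6% of the others held the element. It stood in 3 of 9 members that rose between control and NMN-supplemented oocytes (ZNF451, ZNF567 and ZNF568), 1 of 7 that fell (ZNF112) and 9 of 39 that were not called. For the other genes these shares were 35.7% of those higher, 8.41% of those lower and 29.2% of those not called. The members are too few to read a difference from these counts. A match is a description of letters and not a shown site. The stretches of 30 bases that hold it are given for these 4, with the element in capitals.

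ZNF451: gtttaacgTTTTAATtaagaatagtcactg

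ZNF567: tttgtacTTTTATaattttgtgttaataaa

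ZNF568: cttgtaatTTTTATgccttaaaaaaagatt

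ZNF112: gaccattatctaTTTTATcaaagcaataaa

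They lie on the minus strand at chr7:28682330-28682359, chr6:45709679-45709708, chr6:46093237-46093266 and chr6:50874911-50874940. The poly(A) signal started 46, 17, 34 and 12 bases after the start of the element, and in ZNF567 and ZNF112 it closes the printed stretch.

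Of the 68 members 17, or 25%, share their locus with another gene of the table, against 33.5% of the other tested genes. Among the 18 called genes these were ZNF597 (with NAA60, in a stretch that also spans ZNF174), ZNF664 (with CCDC92), ZNF574 (with GRIK5), ZNF112 and ZNF134. Whether strand was used in counting is not given in the sources used here, so their values are uncertain where the genes overlap. With such loci left out, 13 of 51 members passed the adjusted P, 9 higher and 4 lower.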

How the data were processed

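RNA from 6 samples of porcine oocytes was sequenced, with 2 samples in each of the 3 groups (control, heat stress, heat stress with NMN), as the treatment field of the labels gives them. Reads were trimmed by the authors with cutadapt and mapped with tophat2, as their methods state. The submitters' processing notes name Cufflinks 2.2.1, Cuffnorm and Cuffdiff. The authors deposited FPKM per gene and sample, and the gene annotation they used is not given in the sources used here. The table's 9 columns of the authors' own comparisons (fold changes, P and q values) and their lists of differentially expressed genes were not used. FPKM keeps no total count, so counts and intervals from them are not given.

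FPKM values were transformed to log2(FPKM + 1), which understates the change of low genes. The 4713 genes with a mean of 1 FPKM or more were fitted with limma 3.58.1 (R 4.3.3) as one model of the 3 groups with empirical Bayes moderation and a trend, with Benjamini-Hochberg adjustment over all of them. "Rose" and "fell" are used at an adjusted P under 0.05. Locus coordinates of the table matched the RefSeq annotation of Sscrofa11.1, from which coding sequences, fingers (C2H2 pattern), KRAB cores and 3′ ends were taken, and neighbours were read. Python 3.11.15 with pandas 2.3.3 was used, and the fit was tested on simulated data.

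The members, lists and tests were chosen with earlier results of these data known. Genes named were the 10 highest, the 6 largest differences per comparison and direction without overlap at an unadjusted P under 0.05, up to 10 with an adjusted P under 0.05 per comparison, tested members of the RNA and chromatin lists, the 2 genes on each side of the limit and the 4 co-repressor genes with the smallest P per comparison. ZNF599, ZNF664, DNMT1, the markers AMH, INHA, INHBA, BMP15, GDF9, DDX4 and FIGLA, LOC100513953, and genes named for a neighbour, a group order or a 3′ element were named after seeing their values. The alternatives were another pseudocount (0.1 FPKM), a minimum mean of 0.1 or 5 FPKM, quantile normalization, scaling to the median or the nuclear sum, a replicate block, only the compared groups, no trend, unshared loci and leaving out each sample. Scaling to the nuclear sum without its top gene was added after seeing the data.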

Additional observations from a re-analysis of the deposited data

How the results depend on the processing

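With 2 samples per group and unknown read depth, counts of calls changed with scaling and with samples left out. Leaving a sample out also takes away degrees of freedom. Over 49 differences of named genes and 17 settings, 494 recomputed values stayed on their side of the threshold and 307 lost the call. The sign of these genes follows from how they were chosen, so it is no measure of stability. The causes were not tested. ZNF genes with an unadjusted P under 0.05 went from 15 in the heat comparison to 7 at a minimum mean of 5 FPKM (which leaves 28 members), 7 with the nuclear sum without LOC100513953 and 1 with the nuclear sum, and to 7 to 20 with a sample left out. From 10 between NMN-supplemented and heat-stressed oocytes they went to 4 at the minimum of 5, 1 with the nuclear sum and 5 to 10 with a sample left out, and from 34 between NMN-supplemented and control oocytes to 18, 11 and 18 to 31. The 18 genes at an adjusted P went to 0 at a minimum of 0.1 FPKM, where 11651 genes were tested, 7 with quantile normalization, 9 with only the compared groups, 7 and 1 with the nuclear sum without and with LOC100513953, and 0 to 9 with a sample left out. With the replicate block the count was 6. Whether samples of the same number were collected together is not given. Correlations of same-numbered deviations were -0.032, 0.008 and -0.014, which cannot settle it, so the pairing is unknown. In the first 2 comparisons the adjusted count of the family was 0 in all settings.

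The remaining values are medians of a list minus the median of all other genes. In the heat comparison a minimum of 5 FPKM gave 0.20 for the family (0.0213 to 0.171 with a sample left out), 0.0248 for the RNA list, -0.0513 for the chromatin list, 0.23 for KRAB genes and -0.17 for those without a core. The RNA list was 0.19 at a minimum of 0.1, 0.16 with the nuclear sum, 0.20 with a pseudocount of 0.1 and 0.0442 to 0.19 with a sample left out, and the chromatin list 0.0611 to 0.37. Between NMN-supplemented and heat-stressed oocytes a minimum of 0.1 gave 0.075 for the family, 0.13 for the co-repressors, 0.0042 for KRAB genes, 0.13 for those without and 0.0935 for the other families. The nuclear sum gave 0.12 for the co-repressors, a minimum of 5 gave -0.0374 for the other families and 0.15 for the chromatin list, and quantile normalization 0.13 for the latter. With a sample left out, the chromatin list ran from -0.0578 to 0.14, the co-repressors from 0.0228 to 0.13 and genes without a core from -0.0205 to 0.13. Between NMN-supplemented and control oocytes a minimum of 0.1, which moves the median of all tested genes by -0.12, gave 0.27 for the family, 0.44 for the RNA list, 0.37 for the chromatin list, 0.29 for the co-repressors, 0.20 for KRAB genes, 0.28 for those without and 0.24 for the other families. A minimum of 5 gave 0.22, 0.11 and 0.0945 for the 3 lists and 0.0844 for genes without a core, and a pseudocount of 0.1 gave 0.43 for the RNA list, 0.46 for the chromatin list and 0.25 for genes without a core. Quantile normalization gave 0.34, 0.36 and 0.0975 for the 3 lists and unshared loci 0.33 for the RNA list. With a sample left out the ranges were 0.0382 to 0.22 for the family, 0.23 to 0.32 for the RNA list, 0.0861 to 0.39 for the chromatin list, 0.16 to 0.25 for the co-repressors, -0.0757 to 0.13 for KRAB genes, 0.11 to 0.26 for those without and 0.0241 to 0.19 for the other families.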
